A study of Mus musculus with 12 samples.

Results

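Kinesins are motor proteins that use ATP to move along microtubules or to shorten them. The genes described here are those whose symbol starts with Kif in the deposited expression table, a rule that used no measured value and found 48 of the 54532 genes listed. Most encode the motor subunits themselves. Kifap3 encodes the adaptor subunit of kinesin-2, Kif1bp encodes a protein that binds kinesin motors, Kif22-ps, Kif4-ps and Kifc5c-ps are listed as pseudogenes, and Kif16bos is an opposite-strand transcript.

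The study followed RNA in mouse brain after photodynamic therapy (PDT) with 5-aminolevulinic acid (5-ALA), a precursor that cells convert to the light-activated porphyrin protoporphyrin IX. Mice received 20 mg/kg 5-ALA, then, 30 min later, light from a 635 nm laser at a dose the labels write as 20 J/cm. Brains were taken after perfusion with saline. There were 3 libraries each at 1.5 h, 12 h and 48 h after PDT and 3 control libraries, which are titled PBS and labelled untreated. Injection and light are not stated for the controls. For every group the source name says BALB/c while the strain tag says C57BL/6, and no genetic change is named. Age, sex, brain region and time of day are not given. Nothing says that the libraries of a group came from separate animals, so the p-values below measure only the spread between these libraries, which may be technical.

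Levels are in FPKM, reads scaled by gene length and library size, as deposited. The values are whole multiples of what 1 read is worth, which gave back between 15348579 and 17444654 reads per library. Of the 48 Kif genes, 34 passed the filter for testing (above 0.5 FPKM in at least 3 of 12 libraries) and 14 did not. A difference is given on the log2(FPKM + 1) scale with its standard error (SE) and limma's p adjusted over all 17664 genes tested, and a gene is called at an adjusted p under 0.05. This scale understates the change of genes with low levels, so the ratio of mean FPKM is given beside it. Replicates 1 and 3 at 1.5 h stand apart from the other libraries. For genes of 500 bases or more with a mean of at least 1 FPKM, levels were taken relative to each gene's mean over the 12 libraries. In this pair these relative levels fell by 0.36 and 0.21 (log2) for each doubling of gene length. The other 10 libraries had slopes between -0.07 and 0.12. The share of reads from mitochondrial transcripts was 12.4% and 9.14% in this pair and 4.16% to 6.14% elsewhere. Kif transcripts are long, with a median of 5574 bases among those tested against 3516 over all genes tested, and the trend bears on long transcripts. Choroid plexus markers summed to between 3.16 and 995.3 FPKM and varied within groups, with 48 h replicate 1 the highest. Markers of neurons, oligodendrocytes, astrocytes and microglia were present in every group, as the label of brain tissue has it.

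In neurons, kinesins carry vesicles, mitochondria and cytoskeletal proteins out along axons and dendrites, and neurons do not divide. Another set of kinesins builds the spindle, moves chromosomes and completes cell division, and its transcripts are made mainly by cycling cells in late S, G2 and mitosis. The levels of the Kif genes followed this split. There were 14 with a mean of at least 10 FPKM over the 12 libraries, none of them a mitotic motor. Kif5a, a neuronal heavy chain of kinesin-1, had the highest mean level at 349.5 FPKM, between 162.2 and 550.0 FPKM over the libraries. It was followed by Kifc2, a minus-end-directed motor of neurons (135.5 FPKM), by Kif1a, which carries synaptic vesicle precursors (131.0 FPKM), and by Kif5c, another neuronal kinesin-1 heavy chain (123.0 FPKM). Kifap3 had a mean of 56.0 FPKM. The means of Kif1b, Kif21a, Kif3a, Kif1bp, Kif5b and Kif3c were between 24.9 and 34.6 FPKM, and those of Kif1c, Kif3b and Kif2a between 10.1 and 15.9 FPKM. The ranges of Kifc2, Kif1a and Kif5c over the libraries overlap, so their order is not firm. In contrast, the 13 mitotic motors together summed to between 4.56 and 5.09 FPKM in the control libraries. Kif12, Kif2b, Kif22-ps and Kif4-ps were listed at 0 in all 12 libraries.

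The mitotic motors were high at 48 h after PDT. Of the 8 tested, 6 (Kif18b, Kif20a, Kif11, Kifc1, Kif4 and Kif18a) were called higher than in control libraries, and none was called lower. Over all genes tested 7.5% were called higher and 5.01% lower in this comparison. Summed over the 13 genes, the level was between 9.39 and 15 FPKM at 48 h, highest in replicate 1, against 4.56 to 5.09 FPKM in controls. Kif4, Kif11, Kif18a, Kif18b and Kif20a were above 0.5 FPKM in no control library. Kif4, Kif11, Kif18a and Kif18b passed the filter only with the 48 h libraries, in which they were high. The count of 6 and the p-values of these genes are therefore only a description. Of the 4 motors that pass it without the 48 h libraries (Kif20a, Kif22, Kifc1 and Kifc5b), 2 were called higher, Kif20a and Kifc1. Kif18b, Kif20a and Kif11 were still called without 48 h replicate 1. The filter was kept from all 12 libraries there, so for Kif18b and Kif11 this too is a description. In bulk tissue, fewer or more cells of a type and less or more RNA per cell cannot be told apart.

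Among the mitotic motors Kif18b had the largest ratio. It encodes a motor that moves to the plus ends of astral microtubules and controls their length in mitosis (ENSMUSG00000051378, chr11:102905529-102925124, minus strand, GRCm38). Its level was 1.47, 0.841 and 0.790 FPKM in 48 h replicates 1, 3 and 4, which is 98, 55 and 53 reads, against 0.0162, 0.0159 and 0.0160 FPKM in controls 1, 2 and 4, which is 1 read each. The 48 h libraries all lay above the controls, and the difference was 0.98 ± 0.13 (SE, limma adjusted p = 0.00066). From 206 reads at 48 h and 3 in controls, the ratio was 64.5 with an exact 95% interval of 21.8 to 315.0, which covers counting error only.

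Kif20a, whose motor gathers cytokinesis factors at the spindle midzone, had 1.80, 1.54 and 1.71 FPKM at 48 h (replicates 1, 3 and 4), against 0.426, 0.493 and 0.437 FPKM in controls 1, 2 and 4. The groups did not overlap and lay far apart relative to their spread, with a difference of 0.89 ± 0.10 (SE, limma adjusted p = 0.00025) and a ratio of means of 3.73. Its exons share 1271 bases with Cdc23 on the opposite strand, and whether the counting used strand is not given in the sources used here. Cdc23 had 4.83 to 5.12 FPKM at 48 h and 4.75 to 5.27 FPKM in controls, a difference of -0.02 ± 0.10 (SE, limma adjusted p = 0.91).

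Kif11, the motor that pushes spindle poles apart (ENSMUSG00000012443, chr19:37376403-37421859, plus strand, GRCm38), had 2.13, 0.805 and 1.18 FPKM at 48 h, against 0.372, 0.376 and 0.285 FPKM in controls. Replicate 1 was the highest 48 h library and none overlapped the controls. The difference was 0.78 ± 0.17 (SE, limma adjusted p = 0.011), with a ratio of means of 3.98. Kif4, a chromokinesin of the chromosome arms and the midzone, had 0.804, 0.565 and 0.531 FPKM at 48 h, against 0.231, 0.0925 and 0.239 FPKM in controls. Its difference of 0.46 ± 0.12 (SE, limma adjusted p = 0.032) was lost whenever any 1 of the 6 libraries was left out. Pdzd11, which shares 832 exon bases with Kif4 on the opposite strand, had 13.4 to 14.4 FPKM at 48 h and 10.4 to 11.6 FPKM in controls (limma adjusted p = 0.48). Kifc1, a minus-end motor that focuses spindle poles, had 1.43, 1.06 and 0.938 FPKM at 48 h, against 0.695, 0.416 and 0.353 FPKM in controls, a difference of 0.53 ± 0.14 (SE, limma adjusted p = 0.033). Kifc5b, a close copy of Kifc1 with which it may share reads, did not separate the groups, at 1.67, 0.749 and 1.22 FPKM at 48 h and 1.03, 1.23 and 1.22 FPKM in controls (0.01 ± 0.14, limma adjusted p = 0.97). Values of both are uncertain for that reason, and the Kifc1 call was lost without 48 h replicate 1 or 3 or without control 2 or 4.

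**Figure D1:**
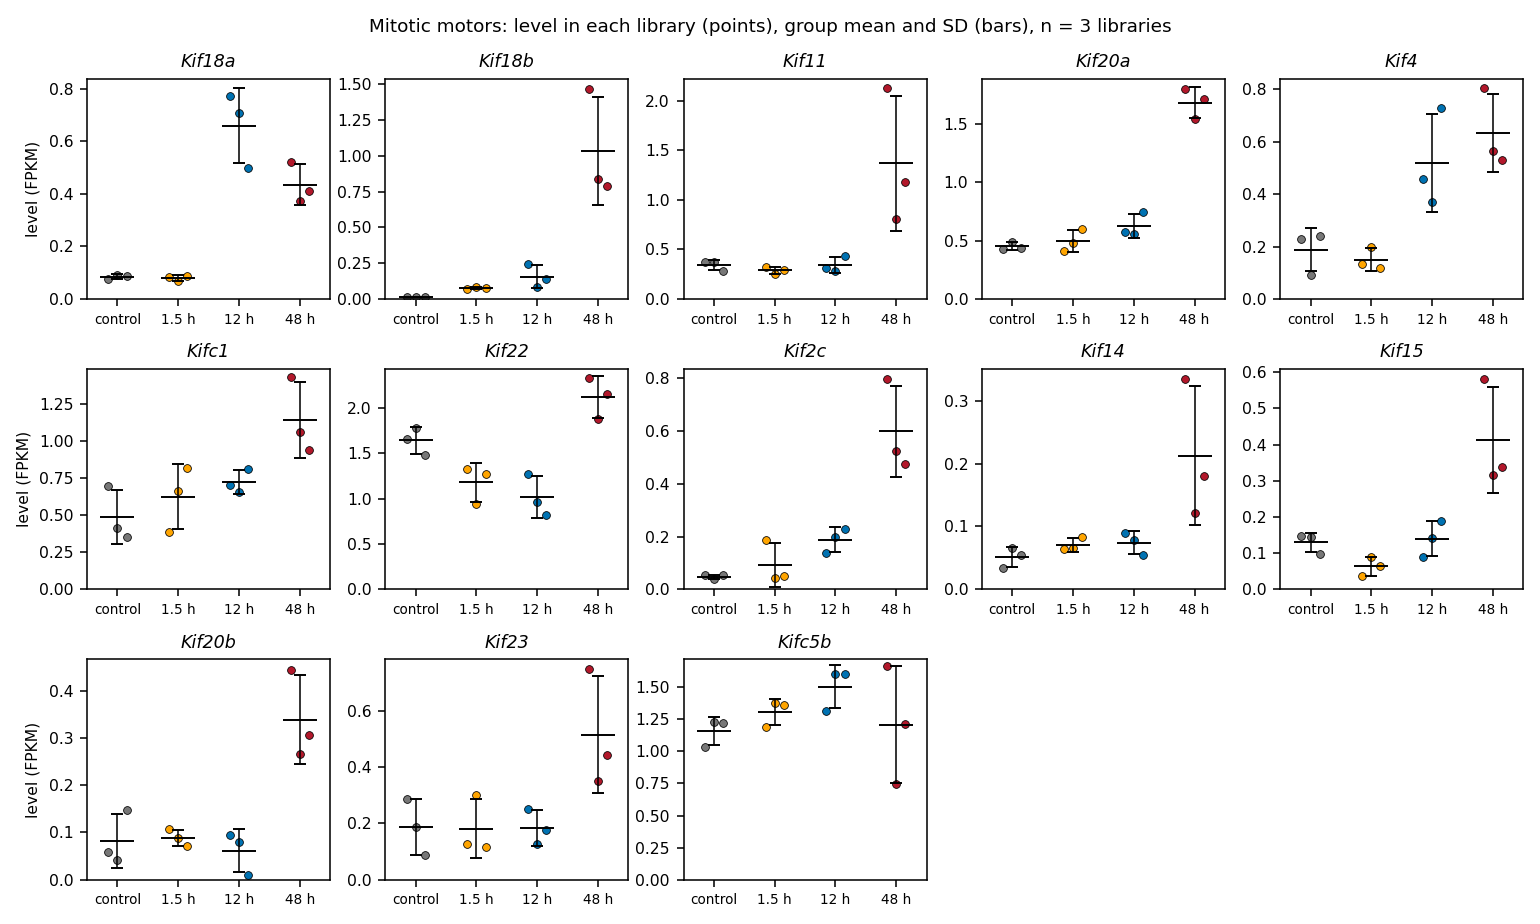
Levels (FPKM, linear axes from 0) of the 13 mitotic motors in each library, grouped as control, 1.5 h, 12 h and 48 h after PDT; points are libraries, horizontal marks and bars the mean and SD of 3 libraries. All 48 h points lie above all control points in each panel except that of Kifc5b, where the groups overlap, and Kif18a is highest at 12 h, with 0.498 to 0.771 FPKM. Such separation was seen for 21.1% of all genes tested and 5.35% of detected genes under the filter. Only Kif20a, Kif22, Kifc1 and Kifc5b pass the filter without the 48 h libraries.

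A further 5 mitotic motors stayed under the filter, and their levels were also higher at 48 h. Kif2c, which shortens microtubules at kinetochores, had 65, 42 and 39 reads at 48 h (0.795, 0.526 and 0.476 FPKM) against 4, 3 and 4 reads in controls, a ratio of 12.5 with an exact 95% interval of 6.77 to 25.5 for counting error. Kif14 and Kif23, both needed for cytokinesis, had 23 to 65 and 51 to 111 reads at 48 h, against 6 to 12 and 12 to 39 in controls. Kif15, which can share the work of Kif11, had 64 to 120 reads at 48 h against 19 to 28 in controls, and Kif20b, a relative of Kif20a, had 34 to 58 against 5 to 18. All 5 had their 48 h libraries above every control, and so did 5.35% of all genes under the filter. Kif6, a motor of motile cilia, was the only one of the 10 detected Kif genes under the filter whose 48 h libraries all lay below the controls, at 0.118 to 0.186 FPKM against 0.226 to 0.304 FPKM, as 4.31% of such genes did.

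An added test used limma's voom on the recovered reads of the 24792 genes with at least 10 reads over all libraries, a filter on the total and not on any group. It called all mitotic motors except Kif22 and Kifc5b higher at 48 h, with 6.75% of genes called higher. On its log2 scale the differences of the 5 motors under the FPKM filter were 3.44 ± 0.51 for Kif2c (SE, limma adjusted p = 0.00076), 2.16 ± 0.56 for Kif20b (limma adjusted p = 0.024) and 1.91 ± 0.46 for Kif14 (limma adjusted p = 0.017). Those of Kif15 and Kif23 were 1.62 ± 0.36 (SE, limma adjusted p = 0.010) and 1.54 ± 0.46 (limma adjusted p = 0.047). The planned limma fit without a filter called 1307 of 34310 genes higher at 48 h, among them Kif2c, Kif15 and Kif20b (limma adjusted p = 0.0018, 0.023 and 0.013). It did not call Kif14 (0.20 ± 0.05, SE, limma adjusted p = 0.06) or Kif23 (0.35 ± 0.11, limma adjusted p = 0.1). Kif22, a chromokinesin that pushes chromosome arms from the poles, did not pass the filtered limma test or the voom test at 48 h. It had 2.33, 1.87 and 2.15 FPKM at 48 h against 1.66, 1.78 and 1.48 FPKM in controls, so its groups did not overlap, with a difference of 0.24 ± 0.12 (SE, limma adjusted p = 0.25).

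At 12 h 1 mitotic motor was called higher and 1 lower. Kif18a, which dampens chromosome movements so that they align at the spindle equator (ENSMUSG00000027115, chr2:109280738-109341747, plus strand, GRCm38), was the only Kif gene called higher than in controls, where 13.3% of all genes tested were. It had 114, 112 and 78 reads in the 12 h libraries (replicates 1 and 2 and the library whose column has no numbered title), which is 0.771, 0.706 and 0.498 FPKM, against 13, 16 and 15 reads or 0.0764, 0.0922 and 0.0873 FPKM in controls. Every 12 h library lay above every control. The difference was 0.61 ± 0.10 (SE, limma adjusted p = 0.0018) and the ratio 7.69, with an exact 95% interval of 5.59 to 10.8 for counting error. Kif18a passed the filter only through 12 h replicates 1 and 2 and 48 h replicate 1, in which it was high. Its call and p-value are therefore a description. At 48 h Kif18a was still above controls, at 0.521, 0.372 and 0.412 FPKM, a difference of 0.40 ± 0.10 (SE, limma adjusted p = 0.025) that was lost without 48 h replicate 1 or 4 or any control.

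Mettl15 starts beside Kif18a on the opposite strand and shares 11 exon bases with it. It had 1.32 to 1.72 FPKM at 12 h and 1.38 to 1.99 FPKM in controls (-0.12 ± 0.17, limma adjusted p = 0.68). Kif22 was lower at 12 h, with 1.27, 0.960 and 0.820 FPKM against 1.66, 1.78 and 1.48 FPKM in controls. Its groups did not overlap, and the difference of -0.39 ± 0.12 (SE, limma adjusted p = 0.043) was lost when 12 h replicate 2, the unnumbered 12 h library or any 1 control was left out. Gm31749, which shares 96 exon bases with Kif22 on the opposite strand, was also below every control at 12 h, with 1.33 to 1.76 FPKM against 1.91 to 2.13 FPKM (-0.29 ± 0.13, limma adjusted p = 0.14). Kif11 had 0.283 to 0.430 FPKM at 12 h and 0.285 to 0.376 FPKM in controls (0.00 ± 0.17, limma adjusted p = 1.0). Kif2c was higher by reads, 39 at 12 h against 11 in controls over 3 libraries each (added voom test, 1.83 ± 0.57, SE, limma adjusted p = 0.039, with 13.0% of genes called higher). At 1.5 h no mitotic motor was called, and their sum of 4.45 to 5.02 FPKM overlapped that of controls, 4.56 to 5.09 FPKM.

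The mitotic motors are shown with their promoters because a short element, the cell cycle genes homology region (CHR), is known to bind complexes that restrict transcription to G2 and mitosis, often beside CCAAT boxes. Promoters of 300 bases (250 before to 50 after a transcript start in RefSeq) were taken from RefSeq, build GRCm38.p6, which had 39 for 35 of the Kif genes. A RefSeq start can differ from the gene start in the deposited table. For Kif4 it lies 328 bases, for Kif14 1505 bases and for Kif2c 3867 bases downstream of it, and for Kif11 21 bases upstream. The letters searched for were TTTGAA or TTCGAA (CHR) and CCAAT, on both strands, with overlaps between motifs allowed. A CHR match was present in 11 of the 12 promoters of mitotic motors and in 4 of the 27 promoters of the other Kif genes, while 19.2% of all 32851 promoters held one. Among promoters whose start lies within 100 bases of the gene start in the deposited table, 8 of 9 mitotic ones and 2 of 22 others had a match. CCAAT was found in 66.7% of the mitotic and in 40.7% of the other Kif promoters, and in 37.4% of all promoters. Kif18a is the mitotic motor whose promoter holds no CHR match, and it holds no CCAAT either. After its sequence was seen, the letters TGACGTCA, the cyclic AMP response element (CRE) read by CREB and ATF factors, were searched for as well. They begin 31 bases after the RefSeq start of Kif18a, and 1.79% of all promoters and 3 of the 39 Kif promoters (Kif18a, Kif17 and Kif5c) contain them. The 4 promoters below are of mitotic motors called at 48 h, given in the direction of transcription with matches to CHR, CCAAT or CRE in capitals. A match of letters is a description and does not show that a factor binds.
Kif18b, chr11:102925075-102925374, minus strand: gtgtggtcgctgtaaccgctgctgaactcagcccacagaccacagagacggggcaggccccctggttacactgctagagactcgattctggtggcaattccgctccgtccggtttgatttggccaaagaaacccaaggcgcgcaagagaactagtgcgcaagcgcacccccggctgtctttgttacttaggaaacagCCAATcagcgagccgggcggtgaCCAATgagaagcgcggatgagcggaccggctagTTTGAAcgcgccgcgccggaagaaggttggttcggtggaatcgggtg
Kif11, chr19:37376132-37376431, plus strand: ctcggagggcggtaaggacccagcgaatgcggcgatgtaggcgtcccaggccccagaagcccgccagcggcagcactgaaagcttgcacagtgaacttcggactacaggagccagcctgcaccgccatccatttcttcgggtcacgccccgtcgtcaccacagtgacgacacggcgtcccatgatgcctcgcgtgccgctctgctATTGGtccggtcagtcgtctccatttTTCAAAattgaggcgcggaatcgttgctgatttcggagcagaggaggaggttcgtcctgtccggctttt
Kif4, chrX:100625815-100626114, plus strand: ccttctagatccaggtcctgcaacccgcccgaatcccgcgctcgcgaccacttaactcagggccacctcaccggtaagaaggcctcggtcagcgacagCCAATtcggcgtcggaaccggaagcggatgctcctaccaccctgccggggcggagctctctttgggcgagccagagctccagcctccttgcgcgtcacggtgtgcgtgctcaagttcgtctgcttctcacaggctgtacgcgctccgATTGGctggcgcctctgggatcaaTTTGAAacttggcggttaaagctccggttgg
Kif18a, chr2:109280488-109280787, plus strand: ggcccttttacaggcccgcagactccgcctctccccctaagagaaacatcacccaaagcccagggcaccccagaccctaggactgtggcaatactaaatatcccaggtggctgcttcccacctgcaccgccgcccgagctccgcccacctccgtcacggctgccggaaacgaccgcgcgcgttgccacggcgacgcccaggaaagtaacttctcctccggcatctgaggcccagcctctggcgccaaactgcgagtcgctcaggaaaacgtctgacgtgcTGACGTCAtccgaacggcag

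Other genes of mitosis were high at 48 h too. Of 33 genes of mitosis and the G2/M transition that are no kinesins, 27 were tested, of which 23 were called higher and none lower at 48 h, with a median difference of 0.88 against -0.00 over all genes tested, of which 7.5% were called higher. Of the 27, 15 were above 0.5 FPKM in no control library, so the count and the median are a description. Of the 13 that pass the filter without the 48 h libraries, 9 were called higher. The smallest p-values were those of Cdk1, the kinase that starts mitosis, which passed the filter only through the 48 h libraries (1.37 ± 0.14, SE, limma adjusted p = 0.00014), and Cdc20, which activates the anaphase-promoting complex (1.53 ± 0.18, limma adjusted p = 0.00025). At 12 h Cdc20 alone was called higher (0.55 ± 0.18, SE, limma adjusted p = 0.046) and Mad2l1, a spindle checkpoint gene, alone lower (-0.39 ± 0.12, limma adjusted p = 0.048). All 6 proliferation markers were called higher at 48 h, with a summed level of 7.96 to 16.5 FPKM against 1.19 to 1.38 FPKM in controls, but only Ccna2 passes the filter without the 48 h libraries. Of 6 microglia markers, 4 were called higher at 48 h (7.5% of all genes tested), with a sum of 140 to 146 FPKM against 78.2 to 84.4 FPKM in controls, and 4 were called lower at 12 h (7.9% of all genes tested), with a sum of 46.5 to 49.0 FPKM. Endothelial markers summed to 48.2 to 74.1 FPKM at 48 h against 26.9 to 29.4 FPKM in controls, with only 1 of 6 called higher (Cldn5) and none lower. Markers of oligodendrocyte precursors summed to 109.0 to 152.1 FPKM at 48 h against 79.3 to 95.9 FPKM in controls, without overlap and with none of 6 called. For pericytes and smooth muscle the sums were 41.1 to 73.9 FPKM at 48 h against 40.1 to 43.3 FPKM in controls, with Acta2 and Kcnj8 called higher. Astrocyte markers summed to 261.2 to 301.0 FPKM at 48 h against 412.9 to 437.7 FPKM in controls. Of 6, 2 were called higher (Aldh1l1 and Aqp4) and 1 lower (Aldoc), against 7.5% and 5.01% of all genes tested. The part of these cell types in the level of the mitotic motors was not tested.

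Among the cargo motors, Kifc2 was the only one called at 48 h and it was lower. Kifc2 encodes a neuronal motor that moves toward microtubule minus ends (ENSMUSG00000004187, chr15:76659858-76668196, plus strand, GRCm38). Its level was 68.7, 82.4 and 87.2 FPKM in 48 h replicates 1, 3 and 4, against 176.3, 146.3 and 126.1 FPKM in controls 1, 2 and 4. All 48 h libraries lay below all controls, and the difference was -0.90 ± 0.17 (SE, limma adjusted p = 0.0050), a ratio of means of 0.531. The call held when any 1 library was left out. Cyhr1, which shares 163 exon bases with it on the opposite strand, was also below every control at 48 h, with 13.9 to 15.3 FPKM against 18.1 to 19.3 FPKM (-0.33 ± 0.13, limma adjusted p = 0.13). At the other times Kifc2 was near control level, at 163.7 to 175.8 FPKM at 1.5 h and 129.7 to 159.8 FPKM at 12 h (limma adjusted p = 0.40 and 0.83). Kifc3, the other minus-end motor outside mitosis, had 6.85 to 9.03 FPKM at 48 h and 6.91 to 7.99 FPKM in controls (0.05 ± 0.12, limma adjusted p = 0.85).

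Kif5a lay above controls at 12 h and below them at 48 h, without passing the test at either time. Kif5a carries neurofilament proteins, vesicles and mitochondria along axons (ENSMUSG00000074657, chr10:127225696-127263348, minus strand, GRCm38). It had 231.2, 195.2 and 219.6 FPKM in 48 h replicates 1, 3 and 4, against 400.4, 392.2 and 378.0 FPKM in controls 1, 2 and 4. At 12 h it had 550.0, 488.4 and 524.2 FPKM in replicates 1 and 2 and the unnumbered library. Neither time overlapped the controls, the 48 h libraries lying below and the 12 h libraries above them. The differences were -0.86 ± 0.31 at 48 h (SE, limma adjusted p = 0.11) and 0.41 ± 0.31 at 12 h (limma adjusted p = 0.40), with ratios of means of 0.552 and 1.33.

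The SE of Kif5a comes from a spread shared by all 4 groups, and its 1.5 h libraries were far apart, at 162.2, 456.8 and 195.3 FPKM in replicates 1, 2 and 3. Fitted on the 2 groups compared alone, the same differences had SEs of 0.13 at 48 h (limma adjusted p = 0.0076) and 0.07 at 12 h (limma adjusted p = 0.0054). With levels corrected for the length trend the values were -0.80 ± 0.26 (SE, limma adjusted p = 0.059) and 0.38 ± 0.26 (limma adjusted p = 0.31). The difference of 48 h from 12 h was itself called, at -1.27 on the log2(FPKM + 1) scale, but the call was lost when any 1 of these 6 libraries except 48 h replicate 1 was left out. As a share of all Kif FPKM, Kif5a made up 24.7% to 28.0% at 48 h and 39.2% to 42.1% at 12 h, against 33.2% to 33.7% in controls. Summed markers of neurons were 839 to 1130 FPKM at 48 h against 1065 to 1153 FPKM in controls, with none of 10 called. At 12 h they were 1188 to 1200 FPKM, with 2 of 10 called higher, the neurofilament genes Nefl and Nefm, where 13.3% of all genes tested were.

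Its relatives showed smaller differences. Kif5c had 93.6, 109.1 and 124.2 FPKM at 48 h, against 134.0, 139.4 and 125.3 FPKM in controls (-0.29 ± 0.32, limma adjusted p = 0.61), and 146.4 to 161.9 FPKM at 12 h (0.20 ± 0.32, limma adjusted p = 0.71). Kif5b, the kinesin-1 heavy chain of most cell types, had 27.4 to 30.5 FPKM at 48 h and 26.1 to 31.4 FPKM in controls, so those groups overlapped (0.02 ± 0.25, limma adjusted p = 0.97). At 12 h Kif5b had 33.8 to 34.4 FPKM, above every control, with a difference of 0.23 ± 0.25 (SE, limma adjusted p = 0.57). The median difference over Kif5a, Kif5b and Kif5c was 0.23 at 12 h and -0.29 at 48 h, against 0.00 and -0.00 over all genes tested.

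**Figure D2:**
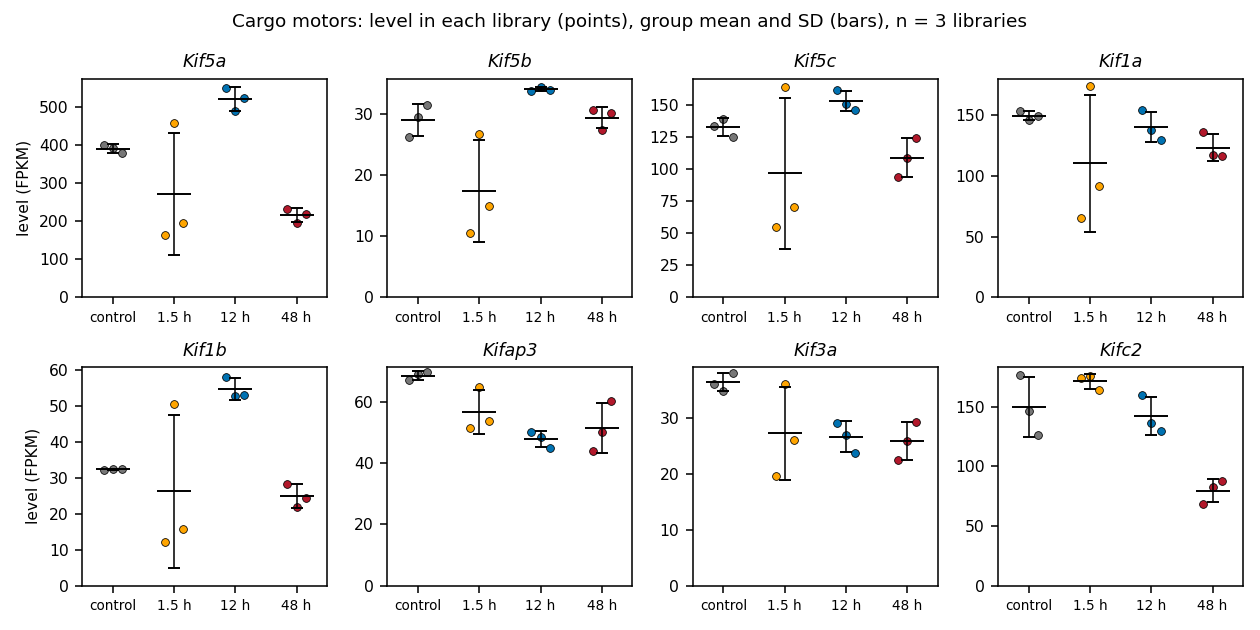
Levels (FPKM, linear axes from 0) of 8 cargo motor genes in each library, grouped as control, 1.5 h, 12 h and 48 h after PDT; points are libraries, horizontal marks and bars the mean and SD of 3 libraries. Kif5a lies at 195.2 to 231.2 FPKM at 48 h and at 488.4 to 550.0 FPKM at 12 h, on either side of the controls, and the 1.5 h points of Kif5a, Kif5b, Kif5c, Kif1a and Kif1b spread widely.

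Kinesin-2 drives transport within cilia and along axons, as a complex of a pair of motor subunits with the adaptor encoded by Kifap3. Kifap3 was called lower at 12 h (ENSMUSG00000026585, chr1:163779583-163917109, plus strand, GRCm38), where 7.9% of all genes tested were. It had 49.98, 48.5 and 44.7 FPKM at 12 h against 66.9, 69.0 and 69.5 FPKM in controls. The groups lay far apart, with a difference of -0.51 ± 0.14 (SE, limma adjusted p = 0.026) and a ratio of means of 0.697, but the adjusted p rose past 0.05 whenever any 1 of these 6 libraries was left out. At 48 h it had 43.8, 50.01 and 60.1 FPKM, also below every control (-0.42 ± 0.14, limma adjusted p = 0.082, and 0.049 with the length trend corrected). Its motor partner Kif3a had 23.8 to 29.2 FPKM at 12 h against 35.0 to 38.2 FPKM in controls (-0.44 ± 0.19, limma adjusted p = 0.13), and 22.6 to 29.4 FPKM at 48 h (-0.48 ± 0.19, limma adjusted p = 0.14). Kif3b, the usual partner of Kif3a, and Kif3c, a neuronal one, were likewise below every control at both times, without a call. Over all genes tested, 26.2% at 12 h and 22.0% at 48 h lay below every control. Kif3b had 12.0 to 12.8 FPKM at 12 h and 13.0 to 14.9 FPKM at 48 h against 15.4 to 16.0 FPKM in controls. For Kif3c the values were 24.2 to 25.3 FPKM at 12 h and 23.2 to 25.5 FPKM at 48 h against 26.7 to 29.5 FPKM in controls. Kif17, a dendritic kinesin-2 that works without Kifap3, had 5.18 to 7.93 FPKM at 12 h against 4.16 to 4.60 FPKM in controls (0.40 ± 0.19, limma adjusted p = 0.18). Sh2d5, which shares 74 exon bases with it on the same strand, was called higher at 12 h, with 30.5 to 37.1 FPKM against 20.3 to 22.6 FPKM in controls (0.63 ± 0.13, SE, limma adjusted p = 0.0058).

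Kinesin-3 motors carry synaptic vesicle precursors, dense core vesicles and endosomes. None of the 6 tested was called against controls at any time. Kif1b, whose isoforms carry mitochondria and vesicle precursors, had 58.2, 52.8 and 53.0 FPKM at 12 h, against 32.2, 32.6 and 32.4 FPKM in controls (ENSMUSG00000063077, chr4:149176319-149307693, minus strand, GRCm38). The control libraries differed little and all 12 h libraries were above them, yet the difference of 0.74 ± 0.38 (SE) had a limma adjusted p of 0.21, since its SE carries the 1.5 h libraries of 12.2, 50.7 and 15.9 FPKM. Kif1b is 17608 bases long. After correction for the length trend the 12 h difference was 0.74 ± 0.23 (SE, limma adjusted p = 0.034, with 12.7% of all genes called higher and 13.4% lower), and with the 2 groups alone 0.74 ± 0.06 (limma adjusted p = 0.00030). Markers of oligodendrocytes summed to 1928 to 2390 FPKM at 12 h against 1031 to 1220 FPKM in controls. In the fit of all 4 groups 3 of 8 were called higher, as were 13.3% of all genes tested. The part of oligodendrocytes in the 12 h levels was not tested. Kif1c, a carrier of vesicles in many cell types, had 19.9 to 20.8 FPKM at 12 h against 13.6 to 15.7 FPKM in controls (0.45 ± 0.17, limma adjusted p = 0.075, and 0.0029 with the 2 groups alone). Kif1a had 129.8 to 154.2 FPKM at 12 h and 116.2 to 136.2 FPKM at 48 h, against 146.1 to 153.5 FPKM in controls, with adjusted p-values of limma of 0.86 and 0.58. Kif13a, Kif13b and Kif16b, which carry endosomal cargo, had limma adjusted p-values between 0.17 and 0.95 at 12 h and 48 h.

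Of the motors that regulate microtubules or serve cilia none was called against controls. Kif26a, which lacks motor activity, had 1.54 to 2.14 FPKM at 12 h against 0.942 to 1.35 FPKM in controls (0.41 ± 0.15, limma adjusted p = 0.080). Kif7, a regulator of Hedgehog signalling in cilia, had 0.541 to 0.900 FPKM at 12 h against 0.200 to 0.353 FPKM in controls (0.40 ± 0.15, limma adjusted p = 0.089). Kif21a, which slows microtubule growth, had 27.0 to 30.0 FPKM at 48 h against 34.2 to 38 FPKM in controls (-0.35 ± 0.25, limma adjusted p = 0.41), and Kif2a, a depolymerase that limits axon branches, had 8.27 to 9.42 FPKM at 12 h against 11.5 to 13.1 FPKM in controls (-0.39 ± 0.17, limma adjusted p = 0.12). The motile cilium motor genes Kif9, Kif19a and Kif27, together with Kif21b and Kif26b, had limma adjusted p-values between 0.26 and 0.90 at 12 h and 48 h. Kif24, which acts at centrioles, was under the filter and had 0.423 to 0.580 FPKM at 12 h against 0.144 to 0.271 FPKM in controls. Kif28, Kif16bos and Kifc5c-ps had at most 0.229 FPKM in any library. Kif1bp had 22.6 to 26.5 FPKM at 12 h against 28.7 to 29.8 FPKM in controls (-0.26 ± 0.16, limma adjusted p = 0.28).

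**Figure D3:**
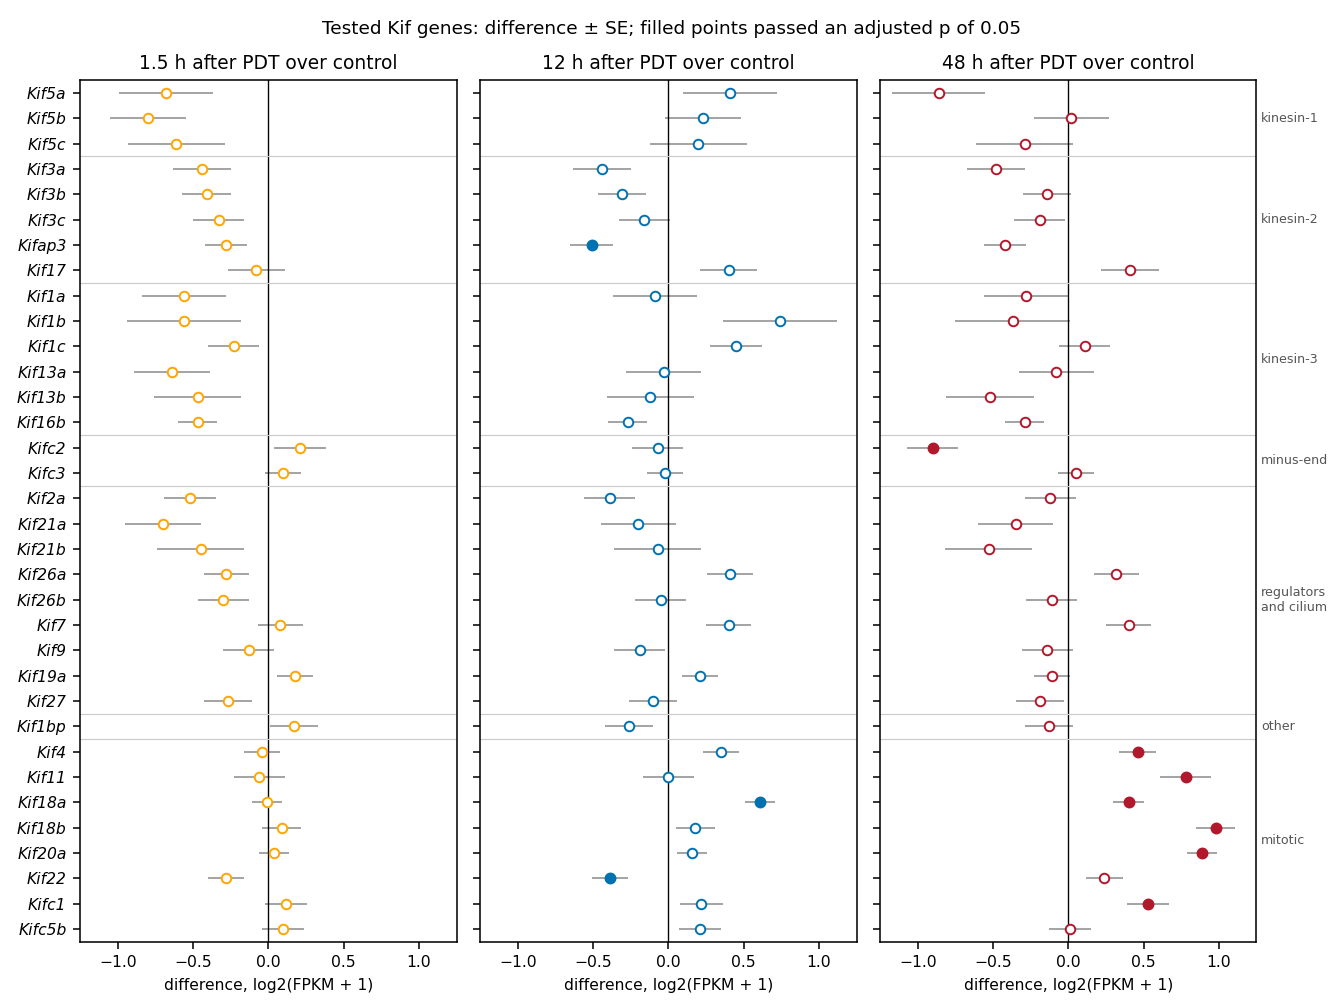
Difference from control on the log2(FPKM + 1) scale for the 34 Kif genes tested, at 1.5 h, 12 h and 48 h after PDT, ordered by role; points show the fitted difference, bars its SE (3 libraries per group), and filled points passed an adjusted p of 0.05. Filled points number 0 at 1.5 h, 3 at 12 h and 7 at 48 h, with the mitotic motors to the right of 0 at 48 h.

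In all, 7 of the 34 Kif genes tested were called at 48 h, when 12.5% of all genes were, and 3 of 34 at 12 h, when 21.2% were. Libraries of the 2 groups did not overlap for 9 Kif genes on the higher and 13 on the lower side at 48 h, against 21.1% and 22.0% of all genes tested. At 12 h these numbers were 14 and 8, against 28.2% and 26.2%. Fits on the 2 groups alone called 11 Kif genes at 48 h and 13 at 12 h, with 11.2% and 22.3% of all genes called higher and 10.2% and 18.9% lower. The Kif genes added by that fit were Kif5a, Kif1b, Kif3a and Kif21a at 48 h, all lower. At 12 h it added Kif5a, Kif1b, Kif1c, Kif26a and Kif7, all higher, and Kif3a, Kif3b, Kif2a, Kif16b and Kif1bp, all lower.

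No Kif gene was called at 1.5 h after PDT, when 0.555% of all genes tested were. The median difference of the 34 was -0.28, against 0.02 over all genes tested. Replicates 1 and 3 were low for the long cargo motors and replicate 2 was not. Kif5b, for example, had 10.5, 26.6 and 14.8 FPKM in replicates 1, 2 and 3, against 26.1, 29.4 and 31.4 FPKM in controls 1, 2 and 4, and Kif1a had 65.2, 174.0 and 91.8 FPKM against 153.5, 146.1 and 149.8 FPKM. Summed over Kif5a, Kif5b and Kif5c the 1.5 h level was 227.9, 647.8 and 281.0 FPKM, against 534.7 to 561.0 FPKM in controls. Leaving out replicate 2 gave 16 called Kif genes, all lower, where 19.8% of all genes tested were lower, and leaving out replicates 1 and 3, which leaves 1 library with a spread taken from the other groups, gave none. With the length trend removed, the difference at 1.5 h was -0.56 ± 0.26 for Kif5a and -0.11 ± 0.23 for Kif1b, in place of -0.68 ± 0.31 and -0.56 ± 0.38 (SE). The part of the mitochondrial share was not tested. Kifc2, with 163.7 to 175.8 FPKM, was not low in them.

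**Figure D4:**
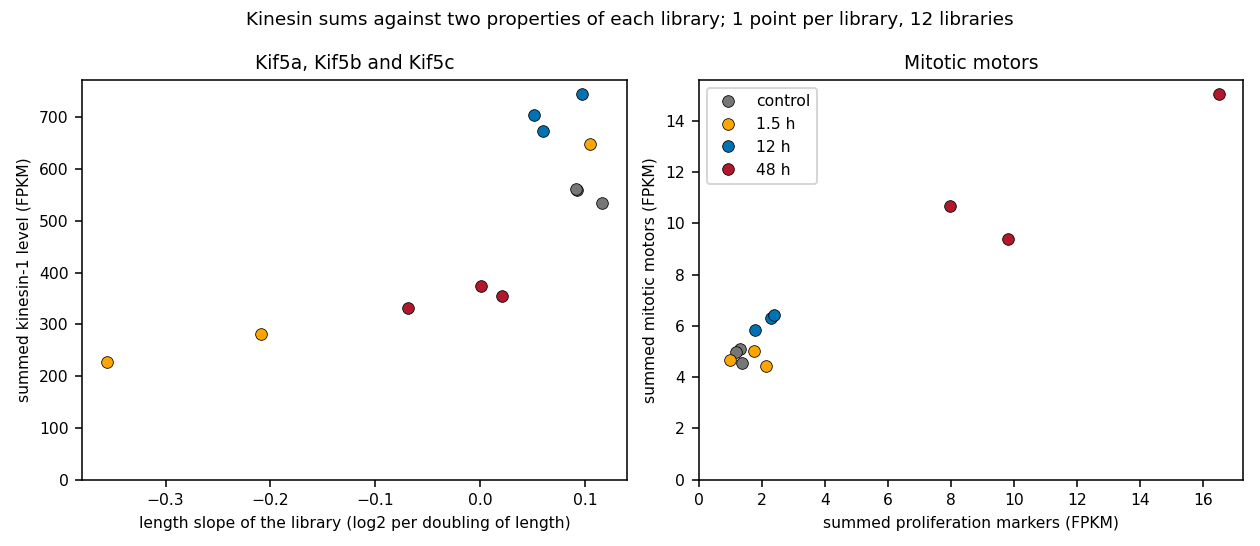
Left, summed level of Kif5a, Kif5b and Kif5c (FPKM) against the length slope of each library (log2 per doubling of gene length). The slope is of levels relative to each gene's mean over the 12 libraries. Right, summed level of the 13 mitotic motors (FPKM) against summed proliferation markers (FPKM). Each of the 12 points is a library; the 2 libraries of 1.5 h with slopes under -0.2 have 227.9 and 281.0 FPKM of kinesin-1, and the 48 h libraries have the highest sums on the right, at 9.39 to 15 FPKM.

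Between times, 7 Kif genes were called higher and none lower at 12 h against 1.5 h, where 16.9% and 16.3% of all genes tested were. At 48 h against 12 h, 4 were higher and 2 lower, with 5.88% and 9.73% of all genes. At 48 h against 1.5 h, 8 were higher and 1 lower, with 8.91% and 8.87% of all genes. Without 1.5 h replicates 1 and 3, the 12 h against 1.5 h comparison called 1 Kif gene, Kif18a (0.63 ± 0.15, SE, limma adjusted p = 0.029). That leaves 1 library at 1.5 h, so the SE comes from the other groups and assumes that it varies like them.

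Some partners of the cargo motors were called. Of 28 tested genes in a list of kinesin light chains and cargo adaptors, 1 was called higher and 3 lower at 12 h, against 13.3% and 7.9% of all genes tested. At 48 h 1 was higher and 2 were lower, against 7.5% and 5.01%. The list also holds Tbce, which is neither a light chain nor an adaptor gene and is 1 of the 3 lower at 12 h. Trak1, which links kinesin-1 to mitochondria, averaged 28.2 ± 2.45 FPKM at 12 h and 14.8 ± 1.20 FPKM in controls (SD, n = 3 each), a difference of 0.89 ± 0.18 (SE, limma adjusted p = 0.0049). Mapk8ip2, a scaffold that binds kinesin light chains, averaged 47.9 ± 1.27 FPKM at 12 h and 51.8 ± 3.23 FPKM at 48 h, against 69.0 ± 0.470 FPKM in controls (SD, n = 3 each). It was called lower at both times, with limma adjusted p-values of 0.0058 and 0.029. The light chain gene Klc4 and the tubulin chaperone gene Tbce were also lower at 12 h (-0.46 ± 0.13 and -0.50 ± 0.12). At 48 h the light chain gene Klc3 was higher (0.73 ± 0.19) and Clstn1, which links kinesin-1 to vesicles, was lower (-0.88 ± 0.23).

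Dynein and dynactin, the motor complex that carries cargo in the opposite direction, had 26 genes tested. Of these, 2 were called higher and 1 lower at 12 h, against 13.3% and 7.9% of all genes tested. At 48 h none was called higher and 1 lower, against 7.5% and 5.01%. Nde1 and Ndel1, regulators of dynein, were called higher at 12 h (0.98 ± 0.20 and 0.61 ± 0.15, limma adjusted p = 0.0064 and 0.013). Hook2, a cargo adaptor, was lower at 12 h and at 48 h (-0.49 ± 0.13 and -0.50 ± 0.13). Of 29 genes for microtubule-associated proteins, 2 were called higher and 1 lower at 12 h, and 1 higher and 3 lower at 48 h. The shares of all genes tested are those just given. Mapre1, which marks growing microtubule ends, averaged 18 ± 0.542 FPKM at 12 h and 14.0 ± 0.803 FPKM at 48 h, against 9.29 ± 0.180 FPKM in controls (SD, n = 3 each). It was called higher at both times (0.88 ± 0.09 and 0.54 ± 0.09, limma adjusted p = 9.1e-05 and 0.0033). Map7d1 was higher and Spast, which severs microtubules, lower at 12 h, and Dcx, Mapt and Map7 were lower at 48 h. Mapt, which encodes the axonal protein tau, averaged 38.6 ± 1.72 FPKM at 48 h against 62.8 ± 0.204 FPKM in controls (SD, n = 3 each, limma adjusted p = 0.031). None of these lists had a gene called at 1.5 h. Their medians at 48 h were -0.18 for adaptors, -0.02 for dynein and dynactin and -0.25 for microtubule-associated proteins, against -0.00 over all genes tested.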

How the data were processed

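The deposited file holds FPKM values made by the authors, 1 column per library. Per the submitters' processing notes, Bowtie 0.12.2 and mm8 were used, whereas 98.33% of the 54409 gene IDs shared with GENCODE M21 have its GRCm38 positions, so positions are given as GRCm38. Counting software and strand setting are not given in the sources used here. One 12 h column matches no numbered title and was placed by its group name. Values were tested with limma 3.58.1 in R 4.3.3 (trend, log2(FPKM + 1), 12 libraries in 4 groups, 8 residual degrees of freedom, Benjamini-Hochberg adjustment). Reads were recovered from the FPKM steps (100.0% of values within 0.05 of a whole step) and used for ratios and voom. Both voom fits and the removal of the length trend over genes of 500 bases or more were chosen after seeing the data. Every Kif gene called in any comparison, every one with a mean of at least 10 FPKM, every mitotic one and those under the filter are named, and of other lists up to 4 called members per direction. Members and lists were chosen with earlier results of these data known. The fit was tested on simulated data. Arithmetic and figures used Python 3.11.15, pandas 2.3.3 and matplotlib 3.10.9.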

Additional observations from a re-analysis of the deposited data

Results flagged for a closer look

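All controls being shared, a difference between 2 times equals the difference of their effects against control. The following Kif genes passed limma's adjusted p of 0.05 for such a difference, given on the log2(FPKM + 1) scale. At 12 h against 1.5 h the differences were 1.30 for Kif1b, 1.09 for Kif5a, 1.03 for Kif5b, 0.69 for Kif1c, 0.69 for Kif26a, 0.62 for Kif18a and 0.39 for Kif4. At 48 h against 12 h they were 0.80 for Kif18b, 0.78 for Kif11, 0.72 for Kif20a and 0.63 for Kif22, and -1.27 for Kif5a and -0.83 for Kifc2. At 48 h against 1.5 h they were 0.90 for Kif18b, 0.84 for Kif11, 0.84 for Kif20a, 0.82 for Kif5b, 0.61 for Kif26a, 0.52 for Kif22, 0.50 for Kif4 and 0.41 for Kif18a, and -1.10 for Kifc2. With the length trend removed, the 12 h against 1.5 h differences were 0.85 for Kif1b, 0.94 for Kif5a, 0.86 for Kif5b, 0.52 for Kif1c and 0.54 for Kif26a, all still past the threshold, while those of Kif18a (0.36) and Kif4 (0.32) no longer passed it. The call of Kif18a at 48 h against 1.5 h was lost as well (0.28). Leaving out single libraries also ended calls. At 12 h against 1.5 h, Kif1b and Kif5a were lost without 1.5 h replicate 1 or 3 or any 12 h library, and Kif4 without 1.5 h replicate 1 or 3, 12 h replicate 1 or the unnumbered 12 h library. Kif5a at 48 h against 12 h was lost without any 12 h library or 48 h replicate 3 or 4. At 48 h against 1.5 h, Kif5b was lost without 1.5 h replicate 1 or 3 or any 48 h library, Kif26a without 1.5 h replicate 1 or 3 or 48 h replicate 1, Kif4 and Kif18a without 1.5 h replicate 3 or 48 h replicate 1, and Kif22 without 48 h replicate 1 or 4. No group had 4 libraries, so single libraries were not searched for outlying values.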

How the results depend on the processing

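None of the 32 called differences of Kif genes changed direction under the alternatives run, and a pseudocount of 0.1 and voom on the same genes kept all of them. The labels do not say whether replicate numbers pair the libraries. For 11 same-number pairs, correlations of deviations from the group mean were -0.264 to 0.156, with a median of -0.004. With 3 libraries per group these values cannot settle whether the numbers mark pairs, so the fit with a replicate block is given as an alternative. With a replicate block, called Kif genes fell to 1 at 12 h and 2 at 48 h against control and to 1, 0 and 3 at 12 h against 1.5 h, 48 h against 12 h and 48 h against 1.5 h, and 25 of the 32 calls were lost. All called genes then numbered 4, 1321, 725, 1131, 470 and 868 for 1.5 h, 12 h and 48 h against control and the same 3 differences between times, in place of 98, 3737, 2209, 5873, 2757 and 3141. With length correction and block the Kif counts were 1, 2, 0, 0 and 4, and all genes 3, 1358, 796, 1234, 477 and 1092. On the 2 groups alone, Kif counts were 13, 11, 3 and 3 for 12 h and 48 h against control, 12 h against 1.5 h and 48 h against 1.5 h, and all genes 5, 7279, 3789, 2384 and 559 for 1.5 h, 12 h and 48 h against control and for those 2 differences. Kif calls at 12 h against control were 5 with quantile normalization, 6 with voom, 7 with voom on genes of at least 10 reads and 7 with the length trend of genes of 500 bases or more removed. Voom on at least 10 reads gave 12 at 48 h against control and 10 at 48 h against 12 h. A filter of 1 FPKM, which removes most mitotic motors, left 2 at 48 h against control and 5 at 48 h against 1.5 h. For all genes at 1.5 h, no filter gave 27, voom 49 and 43, and leaving out replicates 1 and 3 gave 23, with 2409 and, for Kif, 1 at 12 h against 1.5 h.

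Leaving out 1 library gave 0 to 16 Kif genes at 1.5 h, 1 to 2 at 12 h and 4 to 5 at 48 h against control, 4 to 19 at 12 h against 1.5 h, 5 to 7 at 48 h against 12 h and 5 to 22 at 48 h against 1.5 h. All genes ranged over 11 to 8071, 2293 to 2715, 1206 to 1788, 3408 to 9667, 1614 to 2651 and 1877 to 7812. The upper ends with 1.5 h come from leaving out replicate 2. Count tests by edgeR or DESeq2 were not run, since the values are FPKM. Motors under the filter rest on 208 to 437 reads over all libraries for Kif20b, Kif2c, Kif14, Kif15 and Kif23, which limits the changes that could be resolved.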
